A study of Caenorhabditis elegans with 2 samples.

Results

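The conservative-only peaks of LIM-7 are the peaks of the conservative list of both replicates that share not even 1 bp with a peak of the thresholded list of both replicates. There were 247 of them among the 1649 peaks of the conservative list (15.0%), and 1402 peaks made up the rest of that list. In the opposite direction, 400 of the 1804 peaks of the thresholded list overlapped no conservative peak. The members were chosen by the measured values of the chromatin immunoprecipitation (ChIP-seq) themselves, through the irreproducible discovery rate (IDR) that decided which peaks entered each list. Signal and IDR are therefore given below as a description, with no test, and the same holds for location and sequence, which differ along the ranking by signal. The samples were whole Caenorhabditis elegans of strain OP779 at the L4 larval stage, aged 48.5 hours and synchronised as starved L1 larvae after bleaching. They carried the integrated transgene wgIs779, with lim-7 fused to TY1, EGFP and 3xFLAG and with a rescuing unc-119 gene, in the unc-119 mutant tm4063, and the fusion protein was precipitated with an antibody against GFP. Both samples (n = 2) belong to 1 group of biological replicates, and no condition was compared. The lists hold peaks of whole animals, in which the cells that carry a peak cannot be told apart, and the read depth is unknown.

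LIM-7 belongs to the Islet class of LIM-homeodomain factors, whose homeodomain typically contacts sites with a TAAT core and whose LIM domains bind partner proteins such as LDB-1. In C. elegans, lim-7 is known for its expression in the sheath cells that surround the germ line. The IDR compares the ranks of peaks between 2 rankings of the same genome and gives each peak the expected rate at which peaks of its rank or better do not recur. A low IDR means that a peak ranks high in both. Each peak also carries a signal value given by the authors, whose scale is not stated and which is used here only to rank and describe peaks.

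The sequences under the strongest members are shown because they hold the main contrast among the conservative-only peaks. A few strong summits at tRNA genes, other noncoding genes or a pseudogene stood apart from the many weak ones. Stronger summits at short noncoding genes (tRNA, snRNA, snoRNA, miRNA or rRNA) were not particular to members. In the rest of the list, summits within 500 bp of such a gene's start had a median signal value of 192, against 103 elsewhere. For members these medians were 88.4 and 81.6. Each sequence is the 100 bp around a summit, read from the plus strand of the RefSeq genome of the WBcel235 assembly. This is the same build as ce11. Capitals mark the letters of a searched motif on either strand. The first set of 3 lay at tRNA genes, and chrX:9024419-9024518 had the highest signal value of all members.
T25B6.t2: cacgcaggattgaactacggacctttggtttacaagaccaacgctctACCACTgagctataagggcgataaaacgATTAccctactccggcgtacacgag
rte-1: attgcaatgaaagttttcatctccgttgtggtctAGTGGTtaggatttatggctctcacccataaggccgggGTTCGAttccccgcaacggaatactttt
F23A7.t1: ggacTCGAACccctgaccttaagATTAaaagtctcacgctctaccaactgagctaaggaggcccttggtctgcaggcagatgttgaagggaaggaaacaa
The summit windows of rte-1 and F23A7.t1 were chrX:14015923-14016022 and chrX:16217906-16218005. GTTCGA, written TCGAAC on the other strand, is the core of the B box, the internal promoter element of tRNA genes, and it stood in both of these windows but not in that of T25B6.t2. ACCACT stood in the windows of T25B6.t2 and rte-1. The core letters TAAT, written ATTA on the other strand, stood in those of T25B6.t2 and F23A7.t1.

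Outside promoters and away from tRNA genes, the strongest members were at chrIII:2065090-2065189, in the pseudogene srz-86, and at chrIII:1744638-1744737, in the ncRNA gene Y46E12A.11.
srz-86: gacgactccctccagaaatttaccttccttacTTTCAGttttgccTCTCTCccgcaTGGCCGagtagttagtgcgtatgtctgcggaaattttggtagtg
Y46E12A.11: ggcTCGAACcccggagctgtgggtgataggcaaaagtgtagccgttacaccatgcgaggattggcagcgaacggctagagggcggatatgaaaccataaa
The window at Y46E12A.11 began with the letters of the B box core, although no tRNA gene is annotated within 500 bp. The strongest members in promoters of protein-coding genes and away from short noncoding genes were at chrIII:9941181-9941280, in the start of K03H1.9 and upstream of K03H1.12, and at chrX:6536041-6536140, at ilys-5, which encodes an invertebrate-type lysozyme.
K03H1.9: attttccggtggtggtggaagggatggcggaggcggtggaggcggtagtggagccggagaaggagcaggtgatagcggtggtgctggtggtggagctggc
ilys-5: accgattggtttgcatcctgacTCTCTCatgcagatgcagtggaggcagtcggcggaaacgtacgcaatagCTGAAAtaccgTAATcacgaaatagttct
The K03H1.9 window lay in coding sequence, was 65.0% G and C and held none of the 12 motifs searched. The ilys-5 summit lay inside the gene, 21 bp upstream of an annotated transcript start. Its window was 48.0% G and C and held TAAT, together with the letters GAGAGA and the letters of a splice acceptor, TTTCAG.

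Most conservative-only peaks were weak and close to each other in signal. Their signal values ran from 4.42 to 354 with a median of 81.6 (quartiles 74.5 and 87.7), and the rest of the list had values of 4.49 to 822, a median of 120 and quartiles of 95.4 and 189. The median member had a signal percentile of 11.5 within the conservative list, and the median peak of the rest had 57.1. Of the 247 members, 193 lay in the lowest 25% of the list by signal, 10 lay above its median and 1 lay among its top 10%. Signal values over 150 were held by 7 members and by 511 peaks of the rest. Values under 50 were held by 13 members and by 11 peaks of the rest. Almost all members had the same width, 264 bp, in 245 of 247 (99.2%) against 1009 of 1402 (72.0%) in the rest. Between signal values of 70 and 95, all 178 members and 324 of 326 peaks of the rest (99.4%) had this width. Only the 2 strongest members had another width, 182 and 141 bp.

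**Figure D1:**
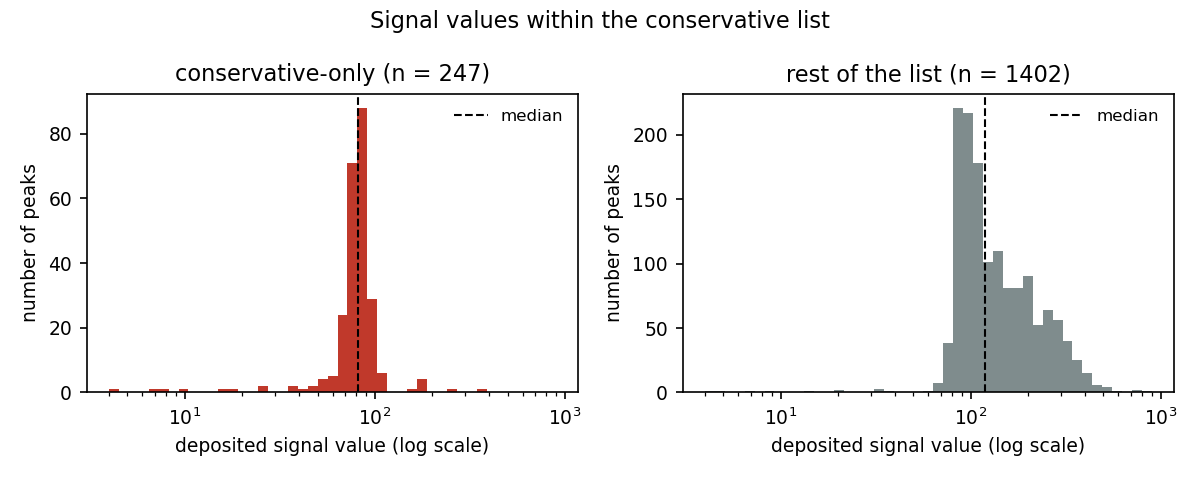
Number of peaks by deposited signal value (log scale, no stated unit) for the 247 conservative-only peaks (left) and the other 1402 peaks of the conservative list (right), with the median of each as a dashed line. The conservative-only peaks crowd around their median of 81.6, with 7 above 150 and a thin tail below 50, while the rest have a median of 120 and reach 822.

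Nearly every conservative-only peak was also a candidate on the thresholded side, where it missed the threshold. Of the 247 members, 235 had a candidate with the same coordinates in the ranked list behind the thresholded list, with a median IDR there of 0.0211, and none of these reached 0.01. The IDR of 109 of them lay between 0.01 and 0.02, of 58 between 0.02 and 0.05, of 26 between 0.05 and 0.1, and of 42 above 0.1. On the conservative side the IDR of the members had a median of 0.00682, against 0.00137 in the rest, and 64 members had an IDR of 0.005 or less, against 1167 peaks of the rest. The members nearest to the threshold on the conservative side had an IDR of 0.01, 0.00998 and 0.00997, and the nearest candidates that failed it had 0.01001, 0.01002 and 0.01004. On the thresholded side the members closest to passing had an IDR of 0.01004, 0.01005 and 0.01006.

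The other 12 members had no overlapping candidate at all on the thresholded side, and they included the 7 strongest members and 10 of the 20 strongest. This group was noticed in the data and is described without a test. Their signal values ran from 83.6 to 354. Of the 12, 11 were intergenic, which here means outside protein-coding genes, and 5 had a summit inside a tRNA gene. A tRNA gene lay within 500 bp of 6, and 7 lay on chromosome X. In the thresholded list of at least 1 replicate, 11 overlapped a peak, 5 of them in both lists. In the whole conservative list, 48.6% of summits were intergenic and 21.7% lay on X. Of these summits, 22.0% lay inside a tRNA gene and 25.2% within 500 bp of one. A thresholded peak of at least 1 replicate overlapped 57.9% of the whole list, and peaks of both replicates overlapped 36.6%. Among all 1807 candidates with an IDR of 0.01 or less on the conservative side, 14 had no overlapping candidate on the other side, and in the opposite direction 18 of 1964 had none. The reason why these candidates are missing on the other side was not tested.

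**Figure D2:**
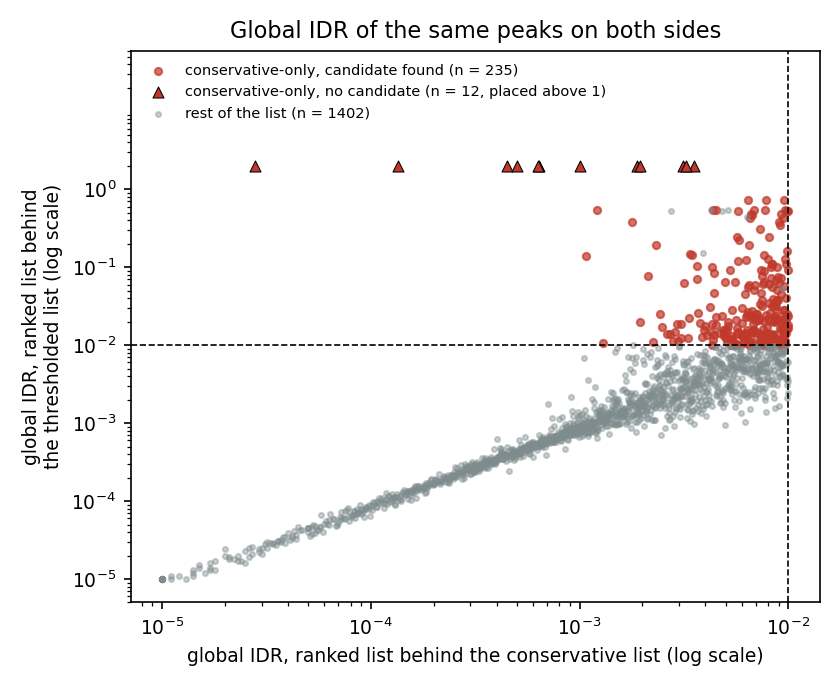
Global IDR of each conservative peak in the ranked list behind the conservative list (x axis) and of its overlapping candidate in the ranked list behind the thresholded list (y axis), both on log scales, with dashed lines at 0.01. The 235 conservative-only peaks with a candidate lie above the horizontal line, close to the right edge, and the 12 without one are drawn as triangles above 1, several of them at low IDR on the conservative side.

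The strongest conservative-only peaks had high values in the replicates too. The peak at T25B6.t2, a threonine tRNA gene on chromosome X (9024413 to 9024484, minus strand), had a signal value of 354 and rank 48 of 1649, and its overlapping candidates had 198 in replicate 1 and 171 in replicate 2. The peak at rte-1, annotated as a glutamate tRNA gene on X (14015944 to 14016015, plus strand), had 261, with 121 and 139 in replicates 1 and 2. Both summits lay inside the tRNA gene, 15 and 29 bp from its start, and both peaks were in the thresholded lists of replicate 1 and of replicate 2. The peak at F23A7.t1, a lysine tRNA gene on X (16217895 to 16217967), had 187, with 91.3 in replicate 1 and no overlapping candidate in replicate 2. The peak between the proline tRNA genes C48C5.t3 and C48C5.t1 on X had 171, with 70.3 and 92.5 in replicates 1 and 2. The peaks in srz-86 and Y46E12A.11 had 173 and 170, with 79.4 and 97.4 for srz-86 and 80.4 and 81.3 for Y46E12A.11 in replicates 1 and 2. The last peak above 150, with 156, lay in an intron of F55G1.15 on chromosome IV, over the ncRNA genes yrn-1 and F55G1.20, with 78.6 and 58.4. After these 7 the next member, on chromosome I outside protein-coding genes, had 116, so a gap separates the few strong members from the others.

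In each replicate, almost all members were present as weak candidates that did not reach that replicate's thresholded list. An overlapping candidate was found for 245 members in replicate 1 and for 245 in replicate 2, and for 243 in both. Signal values of these candidates had a median of 42.1 in replicate 1 (quartiles 38.7 and 45.8) and 43.8 in replicate 2 (quartiles 40.7 and 48.0), against 59.3 and 63.5 in the rest of the list. Although weak within the conservative list, the median member had a percentile of 96.3 among all 66957 candidates of replicate 1 and of 96.6 among all 76263 of replicate 2. Their IDR in the single replicates had medians of 0.234 and 0.166, against 0.00690 and 0.00592 in the rest. A thresholded peak of replicate 1 overlapped 16 members and one of replicate 2 overlapped 16, with 8 in both, and 223 of 247 (90.3%, exact 95% binomial interval 85.9 to 93.7) overlapped neither, against 472 of 1402 (33.7%, 31.2 to 36.2) in the rest. Between signal values of 70 and 95, a range set after the values were seen, 169 of 178 members (94.9%, 90.6 to 97.7) and 266 of 326 peaks of the rest (81.6%, 77.0 to 85.7) overlapped neither. Within that range the members were still the weaker ones, with a median signal value of 82.2 (quartiles 78.0 and 86.3), against 87.6 (quartiles 83.7 and 91.0) in the rest. Such intervals cover counting error only, and neighbouring peaks are not independent.

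Neither replicate held the stronger candidate throughout. The candidate was stronger in replicate 1 for 109 members and in replicate 2 for 134, and for 537 and 851 peaks of the rest. No correlation between the replicates is given for the members, because they were selected on IDR, a rank measure from the same data. Most had an IDR near its threshold. Whether this limits how the values of both replicates vary together was not tested. The 8 members in both replicate lists had replicate 1 values of 60.7 to 198 and replicate 2 values of 49.4 to 171. The 8 found in the list of replicate 1 alone had 39.0 to 91.3 there, and 37.6 to 58.8 in replicate 2 for the 7 with a candidate. The 8 found in the list of replicate 2 alone had 36.1 to 43.9 in replicate 1 and 52.4 to 67.6 in replicate 2.

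**Figure D3:**
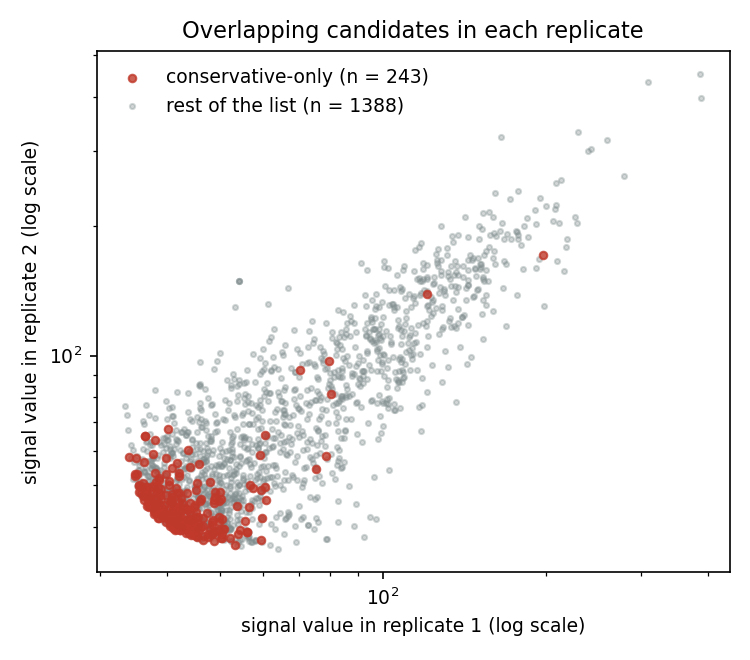
Signal value of the overlapping candidate in replicate 1 (x axis) and replicate 2 (y axis), both on log scales, for the 243 conservative-only peaks and the 1388 other conservative peaks that have a candidate in both. Most conservative-only peaks form a narrow band in the lower left corner, and a few lie along the diagonal of the rest. The members were selected on IDR, and whether this shapes the band was not tested.

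The summits of conservative-only peaks lay in coding sequence more often than those of the rest, and near short noncoding genes less often. Coding sequence held 70 of 247 member summits (28.3%, 22.8 to 34.4), against 196 of 1402 (14.0%, 12.2 to 15.9). Intergenic sequence, here all sequence outside protein-coding genes, held 102 (41.3%, 35.1 to 47.7), against 699 (49.9%, 47.2 to 52.5). It includes summits inside noncoding genes and pseudogenes. Introns held 59 (23.9%, 18.7 to 29.7), against 428 (30.5%, 28.1 to 33.0). Across all classes, 8 member summits (3.24%) and 355 of the rest (25.3%) lay inside a tRNA gene. The 5′ and 3′ UTRs held 8 members each (3.24%), against 1.93% and 3.35% of the rest. Promoters, taken as 1000 bp upstream to 200 bp downstream of the start of a protein-coding transcript, held 85 member summits (34.4%, 28.5 to 40.7) and 516 of the rest (36.8%, 34.3 to 39.4). A gene for a tRNA, snRNA, snoRNA, miRNA or rRNA started within 500 bp of 24 member summits (9.72%, 6.33 to 14.1), against 518 of the rest (36.9%, 34.4 to 39.5). For tRNA genes alone the counts were 9 members (3.64%) and 406 of the rest (29.0%). These traits were not particular to members. Of the 400 thresholded peaks that overlapped no conservative peak, 30.2% lay in coding sequence. Short noncoding genes were near 6.50% of those 400, and tRNA genes near 2.50%.

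In the narrower signal range of 70 to 95, in which members remained weaker than the rest, the intervals of both overlapped in the locations compared. Coding sequence held 29.8% of 178 member summits (23.2 to 37.1) and 33.1% of 326 in the rest (28.0 to 38.5). Intergenic sequence held 37.6% and 36.2%, promoters 33.7% and 39.9%, and short noncoding genes were near 6.74% (3.53 to 11.5) and 9.82% (6.81 to 13.6). The intervals of members and rest overlapped in each of these 4 classes. For tRNA genes the counts were 1 of 178 members (0.562%, 0.0142 to 3.09) and 12 of 326 in the rest (3.68%, 1.92 to 6.34), and these intervals overlapped as well.

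**Figure D4:**
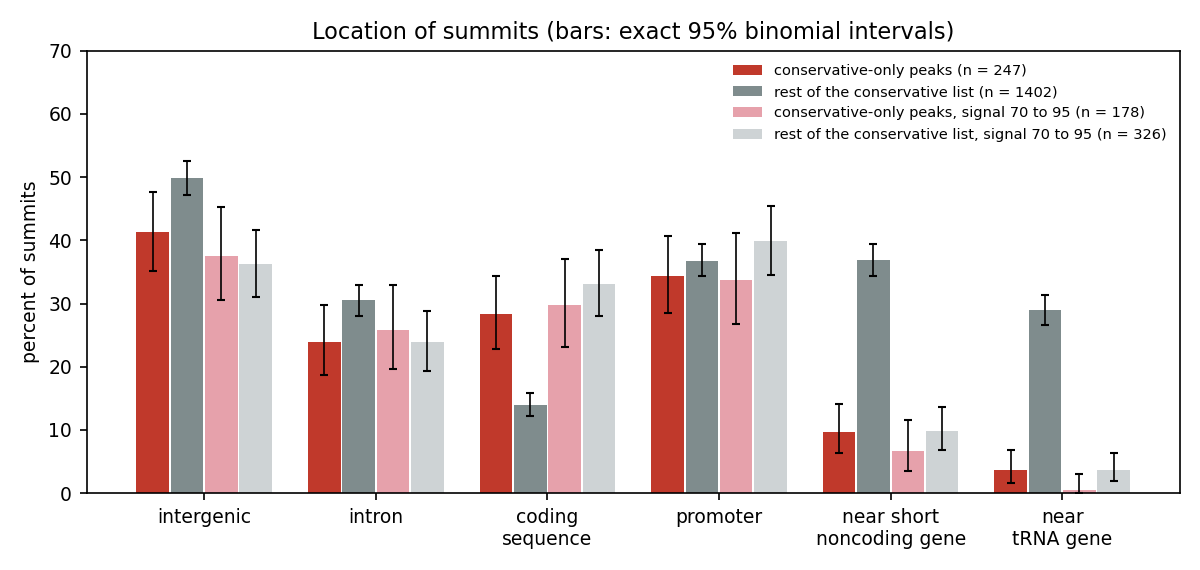
Percent of summits in each location for all 247 conservative-only peaks, the other 1402 conservative peaks, and the 178 and 326 peaks of each group with signal values of 70 to 95, with exact 95% binomial intervals as error bars. Over the whole list, coding sequence (28.3% against 14.0%) and short noncoding genes (9.72% against 36.9%) separate the groups, while between 70 and 95 the bars of the groups have overlapping intervals.

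The short noncoding genes near members were few. Of 1368 such genes, 614 (44.9%) had a summit of any conservative peak within 500 bp and 26 (1.90%) had a member summit. By class these were 11 of 612 tRNA genes, 5 of 129 snRNA genes, 7 of 346 snoRNA genes, 3 of 261 miRNA genes and 0 of 20 rRNA genes. Of these 26, 9 tRNA, 4 snRNA, 7 snoRNA and 3 miRNA genes had no summit of the thresholded list within 500 bp. These counts largely follow from how members were chosen, as peaks that overlap no thresholded peak. The tRNA genes T25B6.t2, rte-1, F23A7.t1, C48C5.t3 and C48C5.t1 are described above. The sixth by signal was F27D4.t1, an asparagine tRNA gene on chromosome I (7718882 to 7718958), with 112 in the conservative list and 56.8 and 49.9 in replicates 1 and 2, and its summit also lay 296 bp upstream of lsy-22.

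The snRNA, snoRNA and miRNA genes lay at members with signal values under 100. The strongest snRNA member had 88.8 at H27M09.6 on chromosome I, with 37.9 and 44.5 in replicates 1 and 2. A summit of 79.5 lay at the first base of sls-2.3 on chromosome II, a gene whose symbol marks a spliced leader RNA of the second kind, which is joined to the 5′ ends of mRNAs from downstream genes of operons. The others were at F08H9.10 (79.7), F07C6.5 (76.9) and Y54G9A.8 (66.8). snoRNAs guide the chemical modification of other RNAs, and the strongest of these members had 96.3, between Y37E3.22 and Y37E3.21 in the gene Y37E3.8, with 41.7 and 42.7 in replicates 1 and 2. The next were C16D9.11 (93.0), C26C6.13 (92.7), K09E9.5 (88.1) and T19E7.29 (72.0). The miRNA genes were mir-229 on chromosome III, which started 491 bp downstream of a summit of 86.3 and 292 bp downstream of one of 24.5, mir-67, 308 bp from a summit of 81.1, and mir-239b on X, with a summit of 79.7 that lay 147 bp from its start.

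In total 96 of 19973 protein-coding genes (0.481%) had a member summit in a promoter, against 685 (3.43%) with a summit of any conservative peak. Of the 96, 88 had no promoter summit in the thresholded list, which largely follows from how members were chosen. The factor's own gene, lim-7 (WBGene00002989, chromosome I, 5716574 to 5725809, plus strand), was one of them. The member peak there ran from 5716413 to 5716676, with its summit 29 bp upstream of the start, outside protein-coding genes. It had a signal value of 86.6, with 34.8 in replicate 1 and 52.5 in replicate 2, and the candidate of neither replicate was in that replicate's list. Its summit lay 0 and 7 bp from the summits of those candidates. The value in replicate 1 was close to the lowest of all members (34.0) and that in replicate 2 was above their upper quartile (48.0). In the thresholded list, the summit nearest to the start of lim-7 lay 9571 bp upstream of it. That peak had the highest signal value of the thresholded list, 822. The transgene carries lim-7 sequence as well, and its reads cannot be told apart here from those of the gene itself. No member lay near unc-119, the nearest summit being 268385 bp away, or near ldb-1, which encodes the LIM domain binding partner, at 312131 bp.

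Of 25 gene lists, 10 had a member summit in at least 1 promoter, where counts of 0 or 1 gene are not read as results. Over all protein-coding genes, 0.481% had such a summit. lim-7 was also the only gene with one among the 8 of the LIM homeobox and LIM binding list, and no gene of that list had a promoter summit in the thresholded list. Of 16 genes of the gonadal sheath and spermatheca, lim-7 and gsa-1 had one. gsa-1 encodes the alpha subunit of a stimulatory G protein, and its member summit, with a signal value of 79.9, lay in its own intron, 571 bp upstream of the start of one of its transcripts, with 34.0 in replicate 1 and 58.1 in replicate 2. gsa-1 also had a promoter summit in the thresholded list, and lim-7 had none there. Lists this small allow no statement about a share.

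Ribosomal protein genes, which held promoter summits of any conservative peak at 29 of 78 (37.2%), had member summits at 3 (3.85%). A summit of 86.3 at rpl-30 lay 72 bp downstream of its start and 450 bp upstream of pab-1, which encodes the poly(A)-binding protein. A summit of 74.3 lay inside rps-10, 167 bp downstream of its start, and 777 bp upstream of the start of rpl-24.1. Both had values of 37.2 to 48.5 in the replicates. Histone genes had 1 member summit among 81, 751 bp upstream of his-48, an H2B gene, with a signal value of 82.5, against 11 with any conservative summit.

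The other lists with a member held 1 gene each. They were nhr-68 of 269 nuclear hormone receptor genes (signal value 85.1), sars-1, the seryl-tRNA synthetase, of 32 aminoacyl-tRNA synthetase genes (81.6), and ppw-1, an Argonaute, of 21 Argonaute and small RNA genes (80.0). Further ones were clec-39 of 240 C-type lectin genes (79.2), fbxb-10 of 274 F-box genes (76.1) and col-52 of 156 cuticle collagen genes (75.2). All 6 values lay within 10 of the members' median of 81.6. The ppw-1 and col-52 summits lay inside these genes, 47 bp downstream and 933 bp upstream of an annotated transcript start. With a promoter summit of any conservative peak, the counts of genes in the same order were 6, 2, 1, 2, 4 and 3. No member summit lay in the promoters of the 15 other lists. Among them were germline (24 genes), pan-neuronal (20) and pharynx (13), with no promoter summit of any conservative peak either. The body wall muscle (22) and intestine (20) lists held 1 gene each with a summit of another conservative peak. Heat shock (22) held 6 and chemoreceptor genes (1364) held 9.

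Among the 20 strongest members, the promoters of 4 protein-coding genes held a summit, those of C04C11.25 (261, at the tRNA gene rte-1), lsy-22 (112, at F27D4.t1) and the pair K03H1.9 and K03H1.12 (99.1). Genes with a known role at weaker members, named after their values were seen, came from many functions. In metabolism they were asns-2 (asparagine synthetase, 90.0), fat-3 (a fatty acid desaturase, 87.3), pck-2 (phosphoenolpyruvate carboxykinase, 87.1), gdh-1 (glutamate dehydrogenase, 85.2) and mdh-1 (malate dehydrogenase, 68.8). The fat-3 and pck-2 summits lay inside these genes, 771 bp upstream and 163 bp downstream of an annotated transcript start. eat-6, which encodes the alpha subunit of the sodium pump, had 90.5, and rla-1, an acidic ribosomal stalk protein outside the ribosomal list, had 96.3. In signalling and autophagy the genes were nipi-3 (a Tribbles kinase, 91.6), mig-5 (a Dishevelled protein, 75.7), rheb-1 (a small GTPase of TOR signalling, 66.3), bec-1 (Beclin, 72.0) and atg-7 (35.1). Several of these summits lay nearer to other genes. That of mig-5 lay 588 bp upstream of it and 168 bp downstream of the start of cct-1. The rheb-1 summit was 318 bp upstream of it and 260 bp upstream of spk-1. The rla-1 summit, 571 bp upstream of it, was 55 bp downstream of the start of Y37E3.8. This peak and that of bec-1 are the ones given above at the snoRNA genes Y37E3.22 and T19E7.29. The number of genes per function is too small to set one apart.

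Of the 12 motifs, each searched on both strands of the 100 bp around a summit, the homeodomain core TAAT was about as frequent at members as in the rest, in 86 of 247 windows (34.8%, 28.9 to 41.1) against 443 of 1402 (31.6%, 29.2 to 34.1), and in 32.1% of the whole conservative list. TAATTA and TAATG, which contain it, were in 1.21% and 10.9% of member windows and in 0.856% and 9.20% of the rest. Over all signal values, 3 motifs were rarer at members than in the rest, with 95% intervals that did not overlap. GTTCGA was in 6.07% of member windows (3.44 to 9.82) and 22.0% of the rest (19.9 to 24.3), ACCACT in 17 of 247 (6.88%) and 281 of 1402, and CGGCCA in 5.26% and 13.1%. Between signal values of 70 and 95, GTTCGA was in 3.93% (1.60 to 7.93) of member windows and 8.59% (5.78 to 12.2) of the rest, with overlapping intervals. In the same range ACCACT was in 6.18% (3.12 to 10.8) and 7.36% (4.77 to 10.8), and CGGCCA was in 5.62% (2.73 to 10.1) and 4.29% (2.37 to 7.10), so that the order of members and rest turned round for CGGCCA, within overlapping intervals. TTTCAG, the letters of the splice acceptor, was in 12.6% (8.69 to 17.3) of member windows and 6.70% (5.45 to 8.14) of the rest, and in 11.2% and 10.4% between 70 and 95. GAGAGA was in 14.2% and 11.9%, CGCGCG in 1.62% and 3.35%, TGATAA in 4.05% and 5.71%, CAGCTG in 2.43% and 2.43%, and CACGTG in 2.43% and 2.50%. The median G and C content of the windows was 50% at members and 51.0% in the rest. A match describes these letters and is not a binding site.

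The members were spread over all chromosomes, with 42 on I, 36 on II, 38 on III, 38 on IV, 49 on V and 44 on X. X held 17.8% of them (13.3 to 23.2) and 22.4% of the rest (20.2 to 24.7), and it makes up 17.7% of the genome. Between signal values of 70 and 95 X held 15.7% of members and 14.4% of the rest. Most members stood alone. A summit of the thresholded list lay within 1000 bp of 24 members and more than 10000 bp away from 141, and neighbouring members on a chromosome lay a median of 236866 bp apart.

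Only 8 pairs of members lay within 2000 bp of each other, and these pairs held 8 of the 13 members with signal values under 50. Their summits were 199 to 313 bp apart, so that the 247 peaks make 239 sites when each pair is counted once. In each pair the weaker peak had a signal value of 4.42 to 48.4 and the stronger one 50.5 to 91.0. In 7 of the 8 pairs both peaks overlapped the same candidate of replicate 1, and in 7 the same candidate of replicate 2. The lowest member of all, in an intron of the chemoreceptor gene srh-41 on chromosome II, had 4.42, beside a peak of 91.0 at a distance of 203 bp, and both overlapped candidates of 42.2 and 39.2 in replicates 1 and 2. The next had 7.07 in the coding sequence of prg-1, which encodes the Piwi protein of the germ line, beside a peak of 57.8, with candidates of 43.5 and 40.1. The others of the lowest 5 had 8.04 upstream of C03H12.1, 9.39 in Y45G5AL.1 and 15.9 in an intron of miz-1, each in such a pair.

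The 13 members with signal values under 50 had a replicate summit at least 92 bp away in 1 replicate or both. Over all members the distance to the summit of the overlapping candidate had a median of 26 bp in replicate 1 and 21 bp in replicate 2, against 11 bp in each for the rest. Between signal values of 70 and 95, this distance had medians of 24 and 20 bp for members and 20.5 and 17 bp for the rest. For the member of 4.42 it was 175 and 174 bp, and for that of 7.07 it was 208 and 160 bp. The member of 8.04 had 92 bp in replicate 2 and no candidate in replicate 1. The member of 9.39 had 195 and 219 bp, and that of 15.9 had 249 and 93 bp. Among the other 8 under 50, the shorter of both distances was 20 to 144 bp and the longer one 139 to 240 bp. Where both peaks of a pair overlap the same replicate candidate, the summit of at least 1 of them must lie far from that candidate's summit, so these distances are not independent of the pairing. Of the 243 members with a candidate in both replicates, 9 had a signal value below those of both candidates. In the rest this held for 11 of 1388 peaks.

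**Figure D5:**
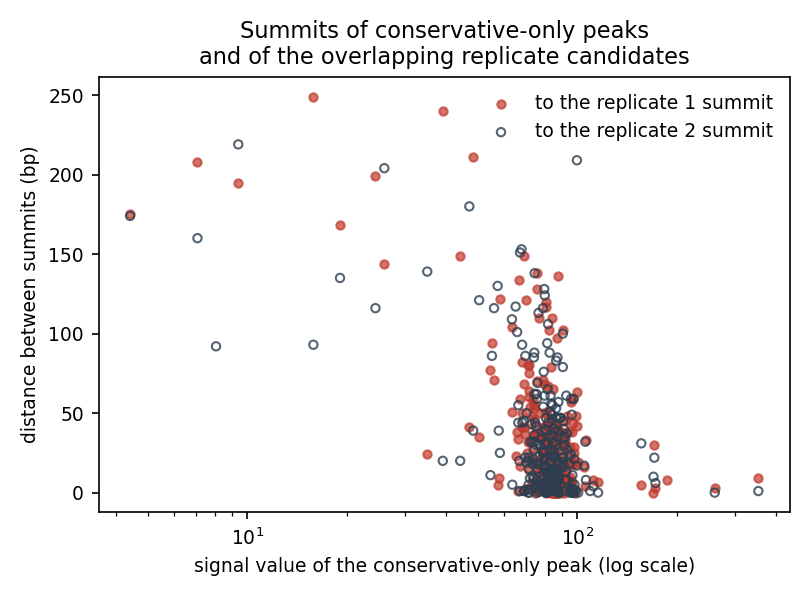
Distance in bp between the summit of each conservative-only peak and the summit of its overlapping candidate in replicate 1 (filled) and replicate 2 (open), against the signal value of the peak (log scale). Peaks above 150 lie within 31 bp of the replicate summits, while several peaks below 50 lie 92 to 249 bp away.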

How the data were processed

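The authors deposited peak lists in ce11 coordinates for each of 2 replicates and for both together, per the file headers and labels. The sources used here do not give the aligner, the peak caller or how the lists were built. The signal value of each peak is the authors', with no stated scale. The deposited q-value and global IDR columns are −log10 values, and IDR was turned back to a linear rate. A total of 16 columns of single inputs were not used. Every conservative peak was found in one ranked list of both replicates at an IDR of 0.01 or less, and 158 of the 1807 candidates that passed there were not in the conservative list.

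Overlap needed 1 bp. Summits were classed by Ensembl's WBcel235 protein-coding genes (coding sequence before UTR and intron), and those outside them were called intergenic. Types of tRNA and names that Ensembl lacks came from RefSeq, and 31853 coding transcripts gave promoters. Genes named were lim-7, unc-119, ldb-1, promoter genes of the 20 strongest members, list members, short noncoding genes (up to 6 a class) and genes at the highest and lowest members. Further genes, such as metabolic and signalling genes, neighbours and host genes, were named after their values were seen. Members, lists and motifs were chosen with earlier results of these data known, so no test was run. Code in Python 3.11.15 with pandas 2.3.3 was tested on simulated lists.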

Additional observations from a re-analysis of the deposited data

How the results depend on the processing

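No paired analysis was possible because the 2 replicates form 1 group. Of 54 alternatives, 29 stayed within the 95% interval of the value (counts: within 1.5 times). Among them were all that counted a peak as overlapping only when at least 50% of it was covered. The members kept at an IDR of 0.005 or less were 64, with 20.3% in promoters, 17.2% near short noncoding genes, 53.1% intergenic, a median signal percentile of 27.4, 29.7% in a replicate list and 12 promoter genes. Promoters of 500 bp upstream and 100 bp downstream gave 21.9% and 59 genes, and 2000 and 500 bp gave 49.4% and 157 genes. Away from short noncoding genes the median percentile was 15.4, and in 200 bp windows TAAT was in 62.3%. Keeping the 16 members in the list of replicate 1, or of replicate 2, gave 18.8% to 37.5% in promoters, 25% to 37.5% near short noncoding genes, 56.2% to 68.8% intergenic, percentiles of 23.2 to 49.2, G and C of 47.5% to 53.0% and TAAT in 18.8% to 50%. With one replicate's list alone, 6.48% of members overlapped it, for either replicate. Without the 12 members that lack a candidate, chosen after seeing the data, 5.53% were in a replicate list. The causes were not tested, apart from the fewer members or other window that each setting makes. Read depth is unknown, peaks are not replicates, and 2 samples of 1 group allow no test of a condition.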
